A study of Mus musculus with 8 samples.

Results

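The Frizzled genes encode the family of cell-surface receptors for secreted Wnt proteins, and all 10 mouse members, Fzd1 to Fzd10, are described here across 4 maps of methylated lysine 4 of histone H3 in the embryonic cerebral cortex. The members were taken by gene name. A locus was the RefSeq span of the gene on GRCm38 plus 10 kb on either side, and the 10 loci were read against 21627 protein-coding loci built in the same way. The mark is written H3K4me in the labels and was mapped by ChIP-seq, the sequencing of DNA from chromatin fragments that an antibody to a modification retains. The antibody is sold for the monomethylated form, which lies over enhancers and the flanks of promoters. Of the 10 loci, 9 carried peaks in every library and Fzd6 carried peaks in 1 library.

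There were 2 ChIP libraries of each genotype, all from whole-cortex lysates of E15.5 embryos. The control embryos (WT) were Prdm16 flox/flox, with no Cre named, and the mutant embryos (cKO) were Emx1Ires-Cre; Prdm16flox/flox, so both genotypes carried floxed alleles of Prdm16, a zinc-finger regulator of neural stem cells. Emx1-driven Cre acts in progenitors of the dorsal telencephalon and their descendants, and cells of other origin in the same lysate, such as interneurons, vessels and microglia, keep the gene. The labels do not say whether a library came from 1 embryo or from a pool, or from separate litters, so p-values measure only the spread between these libraries. The lists held 66476 to 82683 peaks and covered 114 to 166 Mb. Both cKO lists covered more than both WT lists, and read depth is unknown.

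A check of the tissue label used genes of the dorsal telencephalon and its neurons. All 10 had peaks in every library, over 65.1% of the locus at the median gene. Of 12 genes of microglia, vessels, meninges and blood, 9 had peaks in every library and the erythroid genes Gata1 and Hbb-bs had none. The median over the 12 was 6.37%. Of 5 genes of other tissues, 4 had peaks in every library: Ttr (3.74% of the locus on average), Myod1 (12.1%), Hoxb4 (3.06%) and Hoxa5 (6.92%). The liver gene Alb had none. Chromatin from a lysate mixes cell types, so fewer cells with the mark and less mark per cell cannot be told apart.

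A Frizzled protein spans the membrane several times and binds Wnt through a cysteine-rich domain outside the cell. With the co-receptors Lrp5 and Lrp6 it recruits Dishevelled proteins, which protects beta-catenin from destruction and lets it act with TCF/LEF factors on target genes. Through other partners the same receptors orient cells and growing axons. By sequence the family falls into the groups Fzd1, Fzd2 and Fzd7; Fzd3 and Fzd6; Fzd5 and Fzd8; and Fzd4, Fzd9 and Fzd10. In the developing cortex Wnt signalling acts from the medial edge and supports progenitor growth and dorsal identity.

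The receptor genes differed widely in how much of the locus was marked, and their order was nearly the same in every library. Fzd9 was first, with peaks over 61.3% and 60.6% of its locus in WT replicates 1 and 2 and over 72.1% and 71.9% in cKO replicates 1 and 2. Fzd7 was second (37.4% ± 3.03, mean ± SD over 4 libraries), followed by Fzd2 (31.4% ± 7.16) and Fzd10 (27.1% ± 3.50). Fzd8 (22.2% ± 0.721), Fzd5 (19.7% ± 0.464), Fzd4 (15.6% ± 1.20), Fzd1 (13.7% ± 3.02) and Fzd3 (8.50% ± 1.27) came next. Fzd6 was last, at 0% in 3 libraries and 4.67% in cKO replicate 2. This order is by share, and the loci ran from 22.1 kb (Fzd9) to 90.0 kb (Fzd3) in length. By covered kb, Fzd3 exceeded Fzd1, Fzd4, Fzd5 and Fzd8 in every library and lay below Fzd7 and Fzd9 in every library.

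The plot of covered shares by library shows these steps. The ranges of Fzd7 and Fzd2 overlapped, as did those of Fzd2 and Fzd10 and those of Fzd4 and Fzd1, so these neighbours did not differ beyond their spread. In the first 2 of these pairs the order was still the same in 4 of 4 libraries, and Fzd4 exceeded Fzd1 in 3 of 4. The other neighbours in the order did not overlap. The median of all protein-coding loci, which include loci without any peak, was 4.14% to 7.14% covered. The median of the loci kept for the genotype test was 7.52% to 12.0%, and that of the Frizzled loci was 20.6% to 21.3%. Locus length was not allowed for in these medians or in the ranks that follow. Fzd9 exceeded between 99.7% and 99.9% of all loci in each library, and Fzd3 exceeded 58.4% to 66.4%.

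**Figure D1:**
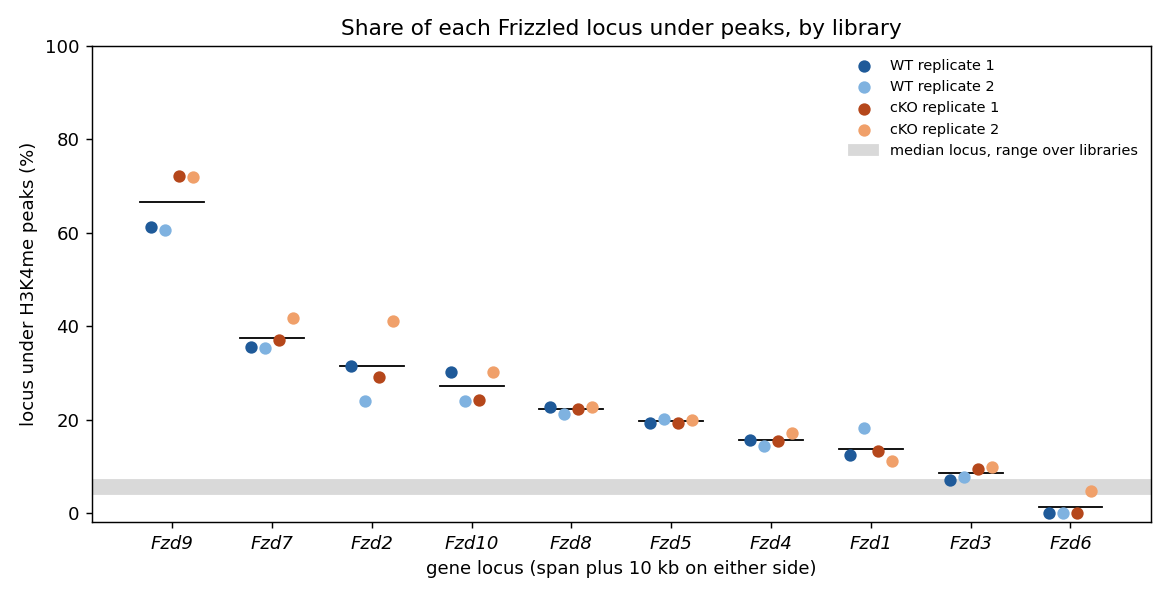
Percent of each Frizzled locus (gene span plus 10 kb on either side) under H3K4me peaks. Each dot is a library, the black line is the mean of the 4, and the grey band is the median of all loci over the libraries (4.14% to 7.14%); Fzd9 lies between 60.6% and 72.1% and Fzd6 is at 0% in 3 libraries.

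The mark around the gene start separated the receptors further. Among the members, 6 had a promoter window in the RefSeq table (GRCm38.p6): Fzd1, Fzd4, Fzd5, Fzd7, Fzd9 and Fzd10. The window runs from 250 bases before to 50 bases after the gene start. Fzd1 had no peak base in the window in any library, with peaks on both sides of it. Fzd7 showed the same gap in 3 libraries, while Fzd5, Fzd9 and Fzd10 had the whole window under a peak in all 4. The 250 bases before the start are shown for Fzd1, where the gap was present in every library, for Fzd7, where it was bridged in 1, and for Fzd9, where the start lay deep inside a peak. They are printed 5′ to 3′ on the strand of the gene, with matches to the TCF/LEF core motif in capitals.
Fzd1, chr5:4758217-4758466, minus strand: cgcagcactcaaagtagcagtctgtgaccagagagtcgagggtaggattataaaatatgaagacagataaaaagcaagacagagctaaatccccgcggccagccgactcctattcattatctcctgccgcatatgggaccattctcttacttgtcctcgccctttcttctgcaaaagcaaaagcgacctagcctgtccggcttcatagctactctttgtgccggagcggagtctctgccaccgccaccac
Fzd7, chr1:59481897-59482146, plus strand: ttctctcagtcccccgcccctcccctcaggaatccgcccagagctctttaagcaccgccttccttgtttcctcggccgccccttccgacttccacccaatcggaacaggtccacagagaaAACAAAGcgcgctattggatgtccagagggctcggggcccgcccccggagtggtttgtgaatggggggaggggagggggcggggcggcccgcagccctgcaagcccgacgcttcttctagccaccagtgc
Fzd9, chr5:135251048-135251297, minus strand: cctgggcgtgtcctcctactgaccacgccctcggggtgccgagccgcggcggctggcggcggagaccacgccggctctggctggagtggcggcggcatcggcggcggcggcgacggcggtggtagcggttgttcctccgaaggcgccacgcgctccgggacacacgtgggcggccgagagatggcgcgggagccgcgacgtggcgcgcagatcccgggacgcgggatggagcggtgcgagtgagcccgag

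The Fzd1 gap was 2.49 and 2.72 kb long in replicates 1 and 2 of WT, against 2.86 and 3.04 kb in those of cKO. It reached from 0.466 to 0.635 kb before the start to between 1.99 and 2.57 kb after it. The gap was longer in both cKO libraries than in both WT libraries, and this difference was not tested. At Fzd7 the gap was 1.52 kb in WT replicate 1, 1.52 kb in cKO replicate 1 and 1.42 kb in cKO replicate 2. In WT replicate 2 a single peak ran from 1.33 kb before to 7.41 kb after the start. Fzd4 had its start under a peak in 3 libraries and in a gap of 1.41 kb in WT replicate 2. Over all loci tested, 32.7% of 15109 windows were free of peaks in all 4 libraries, 25.1% were wholly covered in all 4, and 5.35% were free with peaks within 3 kb on both sides in all 4, as at Fzd1.

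**Figure D2:**
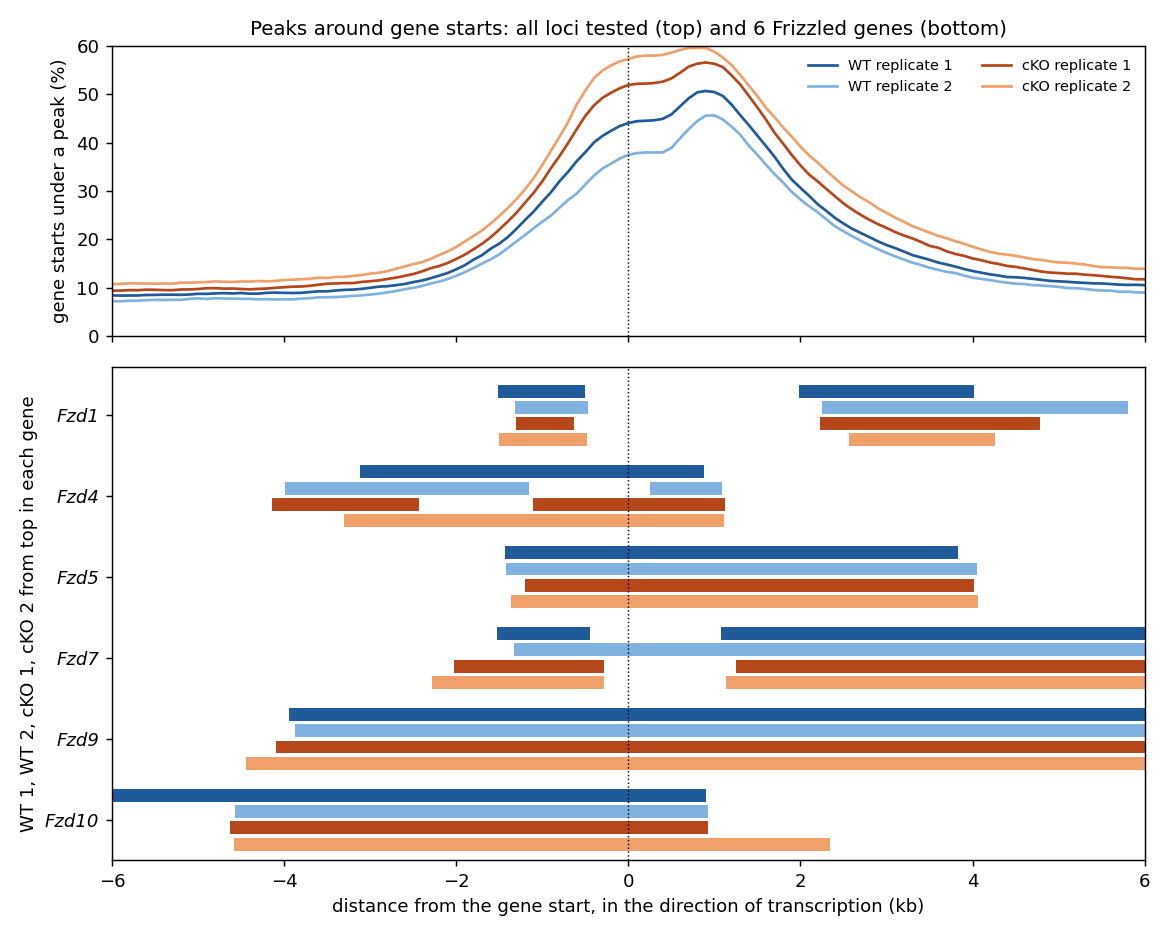
Top: percent of gene starts of all loci tested with a peak at each distance from the start, 1 line per library. Bottom: peaks of the 6 Frizzled genes that had a RefSeq promoter window here, 4 rows per gene. Fzd1 has an empty stretch over the start in every library (2.49 to 3.04 kb), while peaks run across the starts of Fzd5, Fzd9 and Fzd10.

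Among the 6 genes, coverage of the window followed the number of CpG dinucleotides in it. Fzd1 had 16 CpG and no covered base. Fzd7 had 24 and was covered in 1 library, and Fzd4 had 32 and was wholly covered in 3. Fzd5 (38), Fzd10 (45) and Fzd9 (53) were covered in all 4. This order was chosen for description after the values were seen, and it rests on 6 windows. The 15109 windows at loci tested did not show it. Of their 1034 windows with 40 or more CpG, 46.6% were free of peaks in all 4 libraries and 16.1% were wholly covered. Of their 3816 windows with 10 to 19 CpG, 18.5% were free and 31.0% wholly covered. Windows with 0 to 9 CpG (4124) were free in 54.1% and wholly covered in 18.4%. The Fzd9 and Fzd10 windows thus belong to the smaller share of their CpG class.

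The TCF/LEF core was searched as CTTTGAA or CTTTGAT or CTTTGTA or CTTTGTT on both strands. Of the 6 windows, only that of Fzd7 held a match, AACAAAG at position −130 from the gene start, which reads CTTTGTT on the other strand. Over all protein-coding windows of this length, 14.7% held at least 1 match. A match is a run of letters and was not tested as a bound site.

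Across the 10 loci, peaks of the 4 libraries merged into 23 stretches, of which 18 held peak bases in all 4 libraries, 2 in 3, 1 in 2 and 2 in 1. Of the 81.3 kb under a peak in any library, 48.5 kb (59.6%) lay under peaks in all 4, compared with 44.8% over the genome. Fzd9 alone held 13.4 kb of these common bases, and the pooled share did not hold for each locus. Fzd1 (43.6%), Fzd3 (42.6%), Fzd4 and Fzd6 (0%) lay below the genome share. The other members lay above it, from 56.1% (Fzd2) to 91.5% (Fzd5). The common bases formed 20 intervals with a median length of 1314 bp, and 12 of the 20 touched the gene itself. Fold enrichment is the authors' own value for each peak over the background of their caller. The 20 to 24 peaks touching the loci in a library had a median fold between 3.70 and 4.40, against 3.72 to 4.15 for all peaks of the lists.

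**Figure D3:**
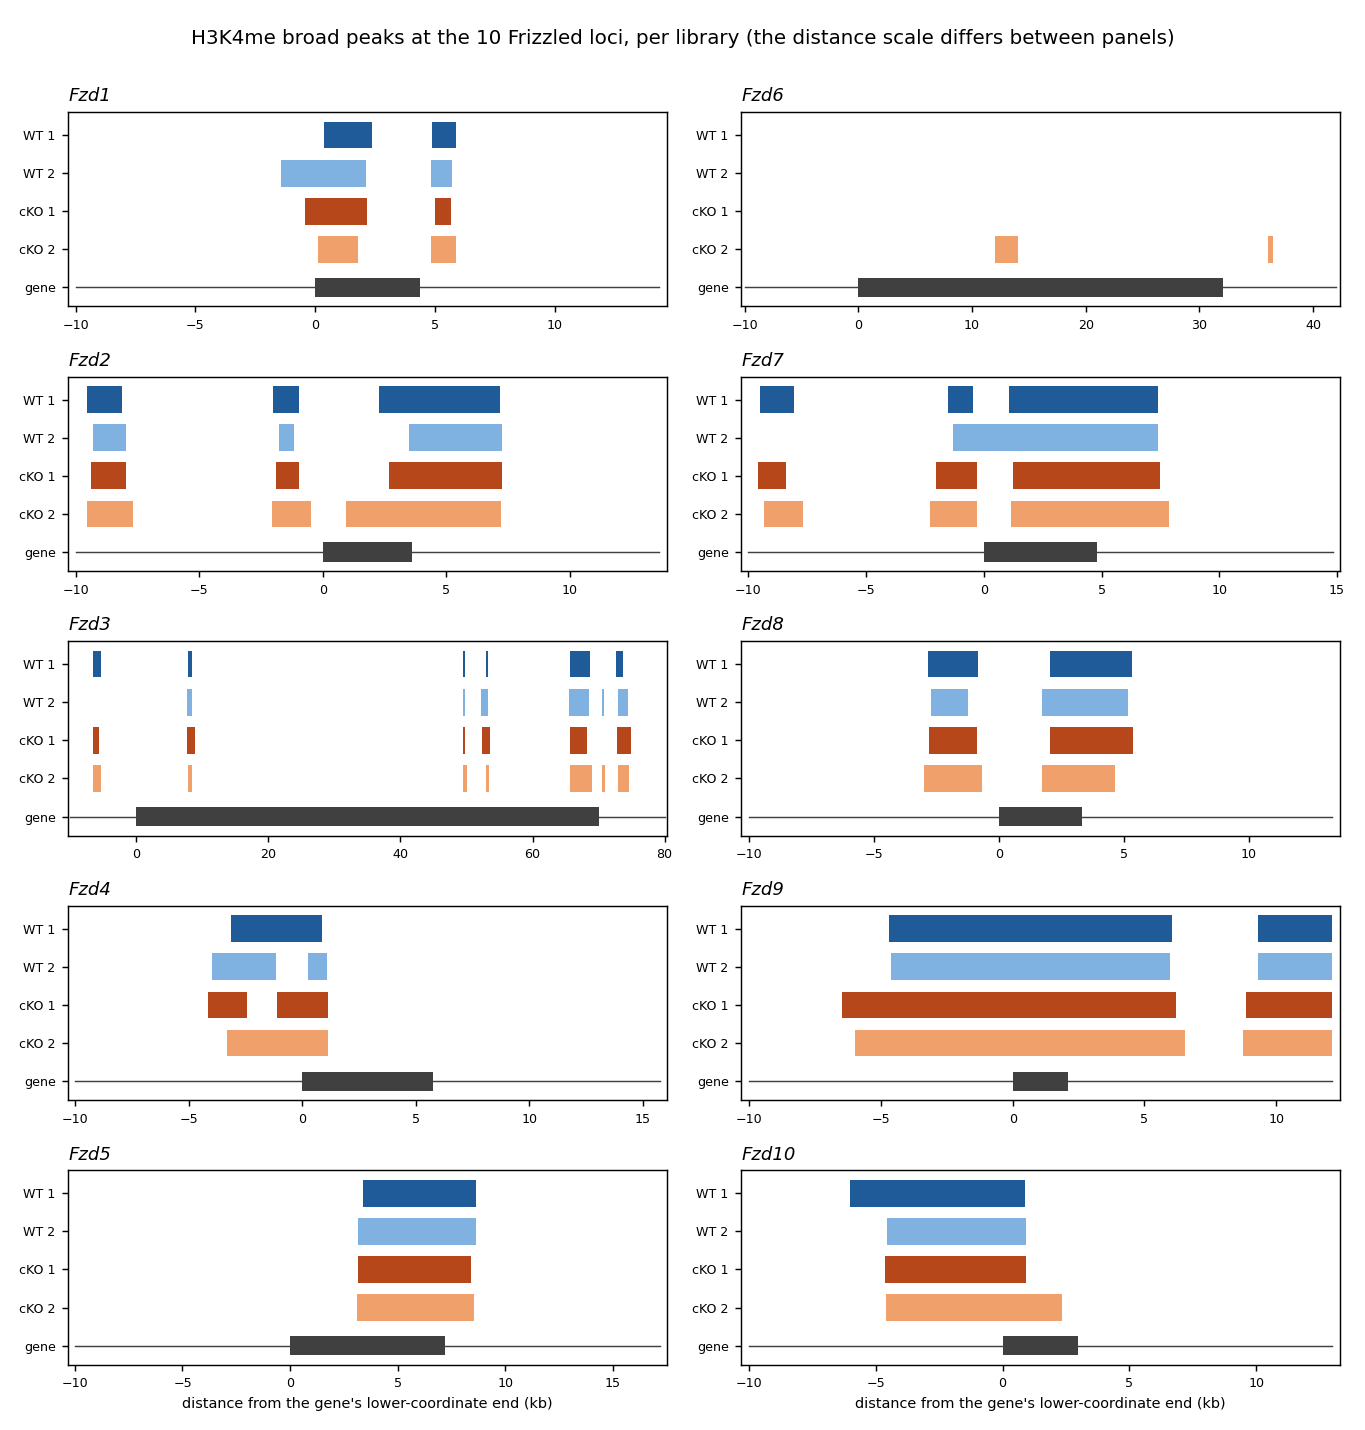
Peaks of each library (coloured bars) at the 10 Frizzled loci, with the gene as a dark bar, against distance in kb from the lower-coordinate end of the gene. Peaks recur at the same places in the 4 libraries at 9 loci, and Fzd6 has peaks in cKO replicate 2 alone.

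Fzd1, Fzd2 and Fzd7 are close relatives that act in beta-catenin signalling. Fzd1 (gene ID 14362, chromosome 5, 4753839 to 4758216) had peaks over 3.04 and 4.41 kb of its locus in replicates 1 and 2 of WT, against 3.23 and 2.72 kb in those of cKO. The genotypes overlapped, because WT replicate 1 lay between the cKO libraries, and WT replicate 2 was the highest of the 4. Its mark consisted of an interval inside the gene (4754198 to 4755648 in all libraries) and another upstream of the start (4758851 to 4759520). The WT replicate 2 peak over the gene was the widest, at 3.55 kb against 1.69 to 2.56 kb in the others.

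Fzd2 (gene ID 57265, chromosome 11, 102604431 to 102608058) carried 7.43 and 5.68 kb in the WT libraries, against 6.90 and 9.72 kb for cKO, and the genotypes overlapped. In each library 3 peaks lay at the same places. The common part of the outermost lay 8117 bp outside the lower-coordinate end of the gene, that of the next 1173 bp outside that end, and the widest peak lay over the opposite end and beyond it. The widest peak was 3.76 to 6.27 kb long, had a fold enrichment of 4.48 to 6.48, and ranked above 81.8% to 95.6% of the peaks of its own list. Its inner edge varied most. It left 3.80% of the gene span covered in WT replicate 2 and 73.5% in cKO replicate 2, with 37.5% in WT replicate 1 and 25.7% in cKO replicate 1.

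Fzd7 (gene ID 14369, chromosome 1, 59482147 to 59486955) had 8.84 and 8.74 kb in the WT libraries, against 9.16 and 10.4 kb for cKO, so the genotypes did not overlap. The upstream peak beside the gap had the highest fold enrichment of any peak in the family in cKO replicate 2 (6.74, above 98.5% of that list). It stood at 6.28 in WT replicate 1 and 4.54 in cKO replicate 1. In WT replicate 2 the caller joined it to the peak over the gene, and the joined peak had 3.52. A further stretch centred near 9 kb upstream (59472546 to 59474467) was called in WT replicate 1 and both cKO libraries and not in WT replicate 2.

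Fzd3 and Fzd6 form the pair best known for planar polarity, Fzd3 in the guidance of major axon tracts of the forebrain and Fzd6 in the orientation of hair. Fzd3 (gene ID 14365, chromosome 14, 65192441 to 65262463) has the longest span of the family, 70023 bp. Peaks covered 6.38 and 7.01 kb in the WT libraries, against 8.44 and 8.77 kb for cKO, with cKO above WT throughout. The mark was scattered over 7 stretches, 5 of them present in all libraries. The longest common interval (65258149 to 65260684, 2536 bp) lay inside the gene near its higher-coordinate end. A short common interval inside the gene (65245402 to 65245734) belonged to peaks with a fold enrichment of 3.67 and 3.38 in WT replicates 1 and 2 and 5.17 and 5.21 in cKO. Those peaks ranked above 29.2% and 29.4% of their lists in WT and above 84.1% and 88.3% in cKO. This interval was singled out from 20 common intervals, and others went the other way. The middle peak at Fzd2 had a fold of 4.51 and 4.02 in WT replicates 1 and 2 and 3.69 and 3.34 in cKO. The lists differ in length, and neither the fold nor its rank was tested between genotypes.

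Fzd6 (gene ID 14368, chromosome 15, 39006149 to 39038192) was the unmarked member. It had 0 kb in both WT libraries and in cKO replicate 1, and 2.43 kb in cKO replicate 2, in a peak of 2.04 kb inside the gene and a peak of 0.389 kb outside it. Both were weak, with fold enrichments of 3.11 and 2.84. Of all protein-coding loci, 1.76% had peaks in 1 library alone and 22.5% had none in any. Fzd6 fell under the minimum of 1000 covered bases on average and was not among the loci tested.

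Fzd5 and Fzd8 are a pair of close relatives, Fzd5 with a role in eye development and Fzd8 expressed in the early forebrain. Fzd5 (gene ID 14367, chromosome 1, 64730558 to 64737750) was the most uniform member. A single peak of 5.22 to 5.48 kb covered the start and 53.2% to 56.5% of the gene in each library, and 91.5% of the bases under a peak in any library were common to all 4. Its covered length was 5.26 and 5.48 kb in the WT libraries, against 5.22 and 5.43 kb for cKO, so the genotypes overlapped. Fzd8 (gene ID 14370, chromosome 18, 9212856 to 9216201) had 5.28 and 4.93 kb for WT, against 5.22 and 5.28 kb for cKO, also with overlap. Its 2 peaks in each library left the lower-coordinate end of the gene between them.

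Fzd4, Fzd9 and Fzd10 form the remaining group. Fzd4, the receptor for Norrin in blood vessels of the retina and brain, lies on chromosome 7 (gene ID 14366, 89404366 to 89410110). Its covered length was 4.0 and 3.68 kb for WT, against 3.94 and 4.42 kb for cKO, also overlapping. The span of Tmem135 overlaps that of Fzd4 by 338 bp, and 2.92 to 3.65 kb of the covered bases lay within Tmem135. These bases can therefore belong to either gene. The strongest peak in each library had a fold enrichment of 3.27 to 4.40 and ranked above 25.4% to 65.0% of its list.

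Fzd9 (gene ID 14371, chromosome 5, 135248938 to 135251047), known for its role in the hippocampus, lay wholly under a peak in every library. That peak was 10.8 and 10.6 kb wide for WT, against 12.7 and 12.5 kb for cKO, and wider than at least 99.3% of the peaks of each list. A second peak beyond it ran past the edge of the locus. The covered length was 13.6 and 13.4 kb for WT, against 15.9 and 15.9 kb for cKO, so cKO lay above WT in every library. Of the locus, 1.88 kb were covered in both cKO libraries and in neither WT library, all of it at the edges of peaks that the WT libraries also had. Part of the wider edge lay in Baz1b, whose span holds 1.90 and 1.82 kb of the covered bases for WT, against 3.67 and 3.16 kb for cKO. The gene span of Fzd9 itself was at 100% in all 4 libraries.

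Fzd10 (gene ID 93897, chromosome 5, 128601106 to 128604093), a receptor of dorsal neural tissue and of the cortical hem, had a single peak reaching from upstream into the gene. Its covered length was 6.92 and 5.50 kb for WT, against 5.55 and 6.92 kb for cKO, so each genotype had a longer and a shorter value. In WT replicate 1 the extra length lay upstream, where the peak began 6.01 kb before the start. In cKO replicate 2 it lay inside the gene, where the peak ended 2.34 kb after the start, against 0.901 to 0.929 kb in the others. These peaks were wider than 95.8% to 97.9% of their lists.

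No Frizzled locus passed the test between genotypes, and neither did any other locus. The covered bases of each locus were taken as log2(bases + 500), from which the median of the same library was subtracted. Tested were the 14937 loci with an average of 1000 covered bases or more. limma with Benjamini-Hochberg adjustment over all tested loci called 0% higher and 0% lower in cKO. At an unadjusted p under 0.05, 5.56% of loci were higher and 4.43% lower, and no member was among them. No other tool was run, since the lists hold no counts. Without WT replicate 1, limma called 119 loci higher and 5 lower, and without the filter on covered bases 182 and 143, with none of the 9 members tested among them in either case. The 9 had limma adjusted p-values between 0.505 and 0.941 (2 libraries per genotype).

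After centring, the difference (cKO minus WT) was negative at all 9 members tested, as at 55.0% of all loci, and the median of the 9 was −0.27 against −0.038 for all loci. A negative sign was not particular to the family. The dorsal telencephalon genes of the tissue check were negative at 10 of 10 (median −0.26). Those of microglia, vessels, meninges and blood were negative at 8 of 9 tested (−0.15), and those of other tissues at 0 of 3 (0.16). Fzd1 had the most negative value, −0.65 ± 0.29 (SE), below all but 1.21% of loci (limma adjusted p = 0.505). Without WT replicate 2, the library with its longest peak, Fzd1 stood at −0.31, and without WT replicate 1 at −0.99. Fzd5 (−0.40 ± 0.19), Fzd10 (−0.38 ± 0.17), Fzd8 (−0.35 ± 0.19), Fzd4 (−0.27 ± 0.20) and Fzd7 (−0.24 ± 0.15) followed. Fzd9 (−0.15 ± 0.14), Fzd2 (−0.071 ± 0.18) and Fzd3 (−0.042 ± 0.18) were smaller than or close to their SE. The sign at Fzd2 turned to 0.0052 without WT replicate 1 and 0.075 without cKO replicate 1. That at Fzd3 turned to 0.12 without WT replicate 2 and 0.019 without cKO replicate 2. Fzd9 stood at −0.055 without WT replicate 2, −0.062 without cKO replicate 2, −0.25 without WT replicate 1 and −0.24 without cKO replicate 1.

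Dropping the centring adds the same amount to the difference at every locus, so the order of the loci by difference stays the same. The sign against 0 can change, and so can the SE and p-value, because centring subtracts a separate median from each library. Without it the median locus differed by 0.35, 92.2% of loci were positive, and 7 of the 9 members were positive with a median of 0.11. Fzd3 (0.34 ± 0.16, SE), Fzd2 (0.31 ± 0.23) and Fzd9 (0.23 ± 0.13) were then the highest, Fzd10 (0.0070 ± 0.21) and Fzd5 (−0.012 ± 0.18) lay near 0, and Fzd1 stayed negative at −0.27 ± 0.26. The limma adjusted p-values without centring were between 0.274 and 0.985.

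**Figure D4:**
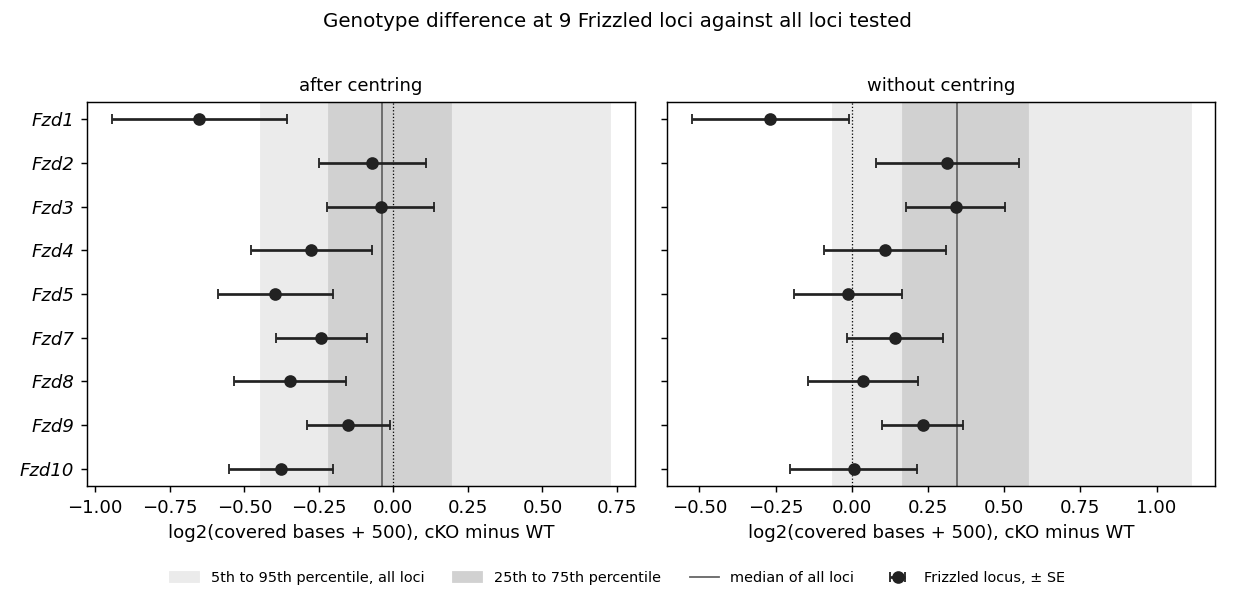
Genotype difference (cKO minus WT) in log2(covered bases + 500) at the 9 Frizzled loci tested, with SE as bars, after centring (left) and without it (right). Grey bands give the spread of all 14937 loci tested and the grey line their median (−0.038 and 0.35); Fzd1 lies farthest to the left in both.

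Counted by whether the genotypes overlapped, Fzd3, Fzd7 and Fzd9 had more covered bases in both cKO libraries than in both WT libraries, as did 59.8% of all loci. No member was lower in both cKO libraries, as were 1.23% of loci. After centring, 6 members (Fzd1, Fzd4, Fzd5, Fzd7, Fzd8 and Fzd10) lay lower in both cKO libraries, compared with 27.2% of loci, and none lay higher in both, compared with 17.3%. The total over the 10 loci was 60.7 and 58.8 kb for WT, against 63.6 and 71.9 kb for cKO.

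No region specific to a genotype was found at a Frizzled locus. Such a region needed 200 bp or more under peaks in both libraries of a genotype and no peak of the other genotype over any of it. Of all protein-coding loci, 14.0% held a cKO-only region and 1.59% a WT-only region. With peaks at a −log10 q of at least 3, the short Fzd3 interval described above became cKO-only (65245342 to 65245819, 478 bp), and 17.2% of all loci then held a cKO-only region. With lists cut to equal covered length, WT-only regions appeared at Fzd1 (4758720 to 4759535, 816 bp) and Fzd4 (89401244 to 89403207, 1964 bp), and 18.1% of all loci then held such a region.

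The rest of the Wnt pathway was read over a list of 66 gene names, which gave 64 separate loci, and 62 of these loci were tested. None passed in either direction (limma). The centred difference was negative at 43 of the 62 (at 55.0% of all loci), with a median of −0.10. Without centring 59 were positive, with a median of 0.28 against 0.35 for all loci. By role, 10 of 13 ligands were negative (median −0.27), 6 of 8 co-receptors and other receptors (−0.17), 6 of 12 secreted regulators (0.0027), 2 of 5 genes of receptor turnover (0.12), 14 of 16 cytoplasmic and nuclear genes (−0.084) and 5 of 7 planar polarity partners (−0.10). The single ligand secretion gene tested was at 0.27.

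The largest differences in this list were positive and at loci with a low covered share. The mean share was 3.89% at Nkd2, 0.922% at Rspo2 and 4.22% at Ror1. Nkd2 and Rspo2 had no peak in WT replicate 2, while Ror1 had peaks in every library and more covered kb. Nkd2, which binds Dishevelled and dampens the pathway, had 0.627 and 0 kb for WT, against 1.63 and 5.38 kb for cKO (1.85 ± 0.56, SE; limma adjusted p = 0.459). Rspo2, a secreted protein that raises Frizzled levels at the surface, had 1.13 and 0 kb for WT, against 2.03 and 3.15 kb for cKO (1.37 ± 0.54; limma adjusted p = 0.482). Ror1, a receptor for Wnt5a, had 13.2 and 7.14 kb for WT, against 18.0 and 23.9 kb for cKO (0.67 ± 0.21; limma adjusted p = 0.468). In these 3 genes, picked for the size of their difference, both cKO libraries lay above both WT libraries, as at 59.8% of all loci tested. Smo, the hedgehog pathway protein of the same receptor class, was covered over 15.9% of its locus on average, close to Fzd4.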

How the data were processed

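The authors deposited broad peaks called separately for each ChIP library. Native chromatin was cut with micrococcal nuclease, per the labels' protocols. The submitters' processing notes name mm10 and the tools Bowtie2 2.2.8, MACS2 2.1.1, cutadapt and FastQC. Calling options and use of the inputs: not given in the sources used here. The 4 inputs were not analysed here. Each deposited line holds a score, a fold enrichment (a ratio over the caller's background) and −log10 p and q values. The deposited score, which follows the −log10 q, was not used. The lists hold no read counts, so no counting interval can be given, and deeper libraries give more and wider peaks.

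Peaks were intersected with RefSeq gene spans (GRCm38.p6, the assembly of mm10) and promoter windows of 300 bases, matched by symbol, in Python 3.11.15 with numpy 2.4.6 and pandas 2.3.3. Loci were compared over all 14937 tested in R 4.3.3 by limma 3.58.1 (trended eBayes, no block, Benjamini-Hochberg threshold 0.05). The interval code and the fit were tested on simulated data. Exons and UTRs were not used here. All 10 members, genes that share a locus and a Wnt list with its 3 largest differences are named. Members and lists were chosen with earlier results of these data known. Alternatives were peak threshold, list size, scaling, flank, pseudocount, filter, block and leaving out each library.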

Additional observations from a re-analysis of the deposited data

How the results depend on the processing

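None of the 9 members tested passed under any alternative that could be fitted (limma adjusted p from 0.114 to 0.994). Fzd5 was negative in 14 of 14, from −0.63 to −0.012. Without centring, which adds the same amount to every locus, the sign turned for Fzd2 (0.31), Fzd3 (0.34), Fzd4 (0.11), Fzd7 (0.14), Fzd8 (0.037), Fzd9 (0.23) and Fzd10 (0.0070). Stricter peaks (−log10 q of at least 3) turned Fzd1 (0.49), Fzd3 (0.078) and Fzd7 (1.63). At Fzd1 and Fzd7 WT replicate 2 then had no peak left. Equal numbers of peaks turned Fzd2 (0.0064), Fzd3 (0.046) and Fzd8 (0.33), equal covered length Fzd2 (0.15) and Fzd9 (0.20), cyclic loess Fzd3 (0.020), no flank Fzd2 (0.62) and Fzd10 (0.17), and a 25 kb flank Fzd7 (0.021). Equal covered length also moved Fzd4 to −1.93 and Fzd8 to −1.79. At both loci cKO replicate 2 then had 0 kb under peaks, and cKO replicate 1 had 2.23 kb at Fzd4 and 1.90 kb at Fzd8. With 1 library left out, Fzd2 ranged from −0.22 to 0.075 and Fzd3 from −0.21 to 0.12.

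The count of called loci was 0 higher and 0 lower in all but 2 alternatives. Without the filter limma called 182 higher and 143 lower. With 1 library left out it called 0 to 119 higher and 0 to 5 lower, the largest counts without WT replicate 1; the lone library is assumed to vary like the others. At Frizzled loci there was 1 cKO-only region with stricter peaks, 2 WT-only with equal covered length and 0 otherwise, where 17.2% and 18.1% of all loci held one under those 2 settings. Common intervals fell from 20 to 8 with stricter peaks, at 5 loci. The labels give replicate numbers and no pairing of WT with cKO libraries. The WT and cKO differences between replicates correlated at −0.096 across loci. Whether libraries of the same number shared a batch was not tested. In this balanced design the replicate block cannot alter a difference (Fzd1 −0.65), and with it 0 loci were called. Fzd8 with stricter peaks and Fzd4 without flank fell under the filter and gave no value.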
